A study of Mus musculus with 10 samples.

Results

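Levels of the nuclear-encoded subunits of the mitochondrial respiratory chain were examined in mouse germinal vesicle (GV) oocytes with and without Setdb1. The genes were chosen by name: symbols that begin with Nduf followed by a, b, c, s or v and a digit (complex I), Sdha to Sdhd (complex II), Uqcr and Cyc1 (complex III), Cox4 to Cox8 (complex IV) and Atp5 (complex V, the ATP synthase). Atp5s, Atp5sl, Cox7a2l and Ndufa4l2 match the rule by name only. The rule used no measured value. It found 85 genes among the 24453 gene symbols of the table: 37 in complex I, 4 in II, 9 in III, 18 in IV and 17 in V. Of these, 81 were among the 11338 genes whose mean over the 10 libraries reached 0.5 RPKM (reads relative to transcript length and sequencing depth) and were tested, and the other 4 (Atp5g2, Cox7a1, Cox7b2 and Cox8b) were not.

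From each C57Bl/6J mouse, 16 denuded GV oocytes, which are full-grown oocytes held in the first meiotic prophase, were pooled for 1 library. No age of the mice is given in the sources used here. The 4 mutant mice (Setdb1 f/-; Zp3-cre) carried 1 floxed and 1 deleted allele of Setdb1, a histone methyltransferase gene, together with Cre driven by the Zp3 promoter, which acts in growing oocytes. The controls were 4 f/+; Zp3-cre mice, with Cre, a floxed and a wild-type allele, and 2 f/- mice without Cre, whose alleles were floxed and deleted. Every mouse therefore carried a floxed allele, and mutants shared Cre with the first control group and the deleted allele with the second. Once Cre has acted, an f/+; Zp3-cre oocyte keeps its wild-type allele, an f/- oocyte keeps its floxed allele and a mutant oocyte keeps neither.

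The respiratory chain sits in the inner mitochondrial membrane. Complex I takes electrons from NADH and complex II takes them from succinate; ubiquinone carries them to complex III, cytochrome c carries them on to complex IV, and complex IV reduces oxygen. Complexes I, III and IV pump protons, and complex V uses the proton gradient to make ATP. Complex II is encoded in the nucleus alone, whereas the other complexes also hold subunits encoded by mitochondrial DNA, which are not part of the gene set. The mouse oocyte relies on mitochondrial oxidation of pyruvate and makes little use of glycolysis.

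Setdb1 itself was at 1.31 to 4.06 RPKM in mutants and at 19.9 to 52.5 RPKM in controls (log2 difference -3.20, exact two-sided permutation p = 0.00476, the smallest that 210 splits can give). The spacing of low values gave about 45.8e6 to 72.8e6 reads per library. The summed level of 10 oocyte markers was 5067 to 5188 RPKM in mutants and 5066 to 6745 RPKM in controls, and none of the 10 passed the test. That of 12 granulosa and cumulus cell markers was 78.1 to 111 RPKM and 76.1 to 104 RPKM, with Serpine2 (mean 65.0 and 66.0 RPKM in mutants and controls), Nr5a2 (13.2 and 12.7 RPKM) and Cyp19a1 (8.22 and 6.57 RPKM) as the main contributors and Fshr, Foxl2 and Amh below 1 RPKM on average in both groups. Of 10 blood, immune and endothelial markers the sum was 22.0 to 42.7 RPKM and 29.9 to 46.8 RPKM, of which Pecam1 (mean 13.7 and 20.1 RPKM in mutants and controls, limma adjusted p = 0.19) and C1qb (12.7 and 14.5 RPKM, adjusted p = 0.68) made up most, and Hba-a1, Hbb-b1, Hbb-bt and Cdh5 were at 0 in all 10 libraries. The part of these cells in the results was not tested. In the respiratory chain genes, f/+; Zp3-cre replicate 3 was above the other 3 of its group. The members' median log2 deviation from their own means was -0.25 in f/- replicate 2 and 0.09 in f/- replicate 1. That of f/- replicate 2 was like those of f/+; Zp3-cre replicates 1, 2 and 4 (-0.26, -0.20 and -0.20). Results are also given without f/+; Zp3-cre replicate 3 and f/- replicate 2. In pooled oocytes, a change of level in every cell and a change in only some of the cells cannot be told apart. RPKM are relative to sequencing depth, so they do not give amounts per cell.

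Respiratory chain genes were expressed well above the typical tested gene. In controls the median level of the 85 members was 15.7 RPKM, against 5.94 RPKM for all tested genes. The members' transcripts were short, with a median of 731 bases against 2700 bases, and 54 of the 81 tested members had a transcript of up to 1 kb. The median control level was 13.6 RPKM in complex I, 36.1 RPKM in II, 25.4 RPKM in III, 23.6 RPKM in IV and 19.1 RPKM in V. At least 50 RPKM was reached by 11 members: Cox6a1, Atp5b, Atp5e, Cox4i1, Atp5a1, Atp5k, Cox5a, Uqcrq, Sdhd, Ndufa4 and Uqcrh. A further 44 lay between 10 and 50 RPKM, 25 between 1 and 10 RPKM, and 5 were under 1 RPKM.

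The highest level was that of Cox6a1, a small subunit of complex IV, at 138 ± 34.0 RPKM in controls (SD, n = 6). Atp5b, which carries the catalytic sites of the ATP synthase, followed at 131 ± 27.1 RPKM. The gap between them was smaller than either SD. Within complexes the levels were far from even. In complex III, Uqcrq was at 65.4 RPKM in controls, and the core protein gene Uqcrc1 at 1.17 RPKM. Near-identical copies elsewhere in the genome (at least 95% identity over at least 50% of the transcript) were found for 14 members, among them Atp5l with 9 copies and Uqcrb and Atp5h with 3 each. How reads that match several places were treated is not stated in the labels, so the levels of these 14 are uncertain. Atp5l was at 1.60 to 2.00 RPKM in mutants and 1.06 to 2.10 RPKM in controls.

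**Figure D1:**
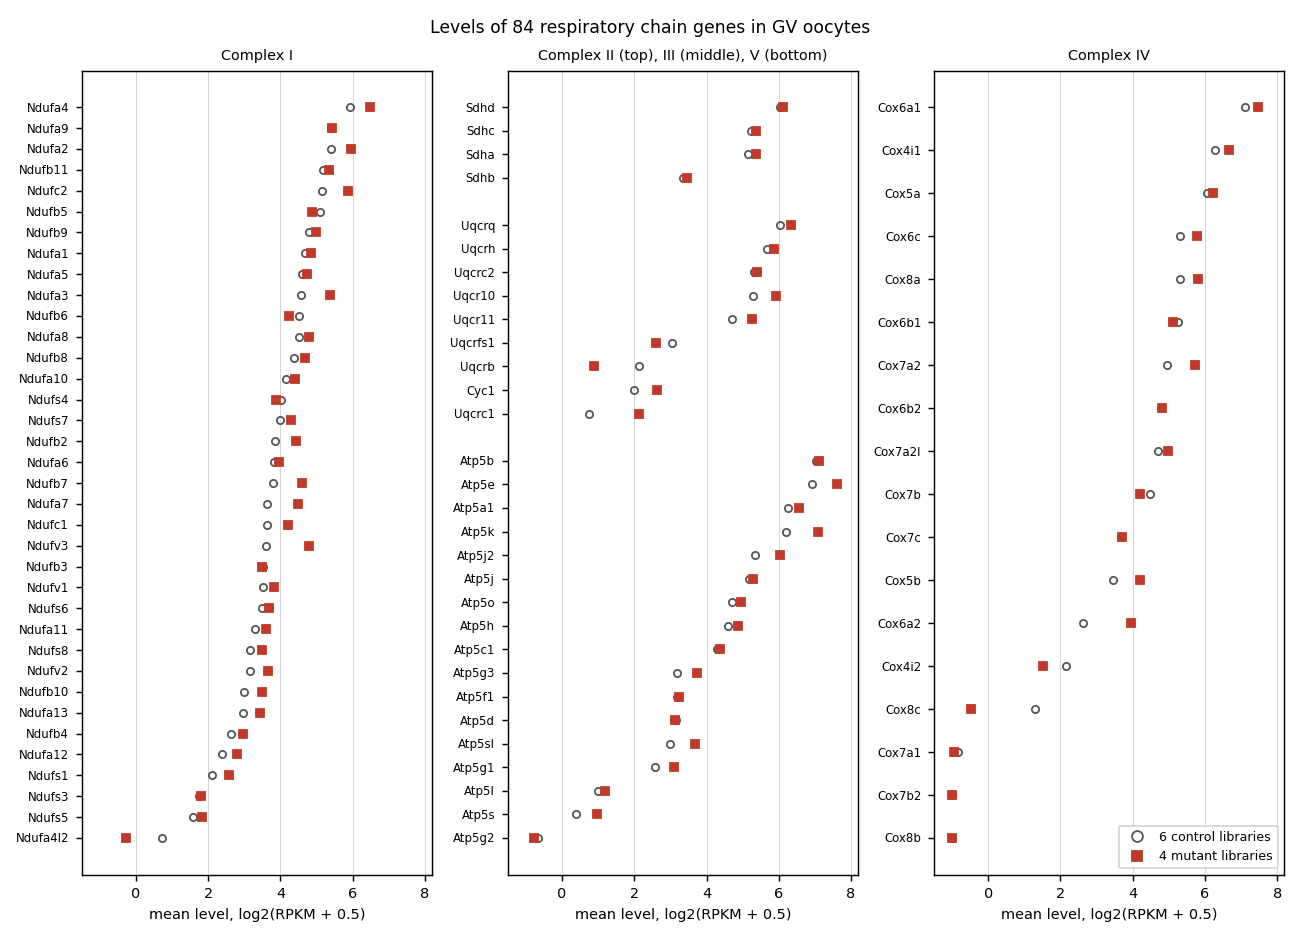
Mean level of the genes, as log2 of the mean RPKM plus 0.5 on the horizontal axis, by complex and ordered by the control level; open circles are means of the 6 control libraries and filled squares means of the 4 mutant libraries. Levels ran from 0 RPKM (Cox7b2, Cox8b) to 138 RPKM (Cox6a1) in controls, and in many rows the mutant mean lay slightly to the right.

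The stretches upstream of the start sites showed how the genes are built. RefSeq (GRCm38.p6) gave a window from 250 bases before to 50 after the start for 69 of the 85 members, with a median of 19 CpG dinucleotides against 7 over all 27025 promoters. Letters known to be bound by nuclear respiratory factor 1 (NRF1, GCGCANGCG) stood in 19 member windows (27.5%) against 6.47% of all promoters, those of ETS factors (CCGGAAG) in 15 (21.7%) against 9.12%, and those of YY1 (AAGATGGCG) in 7 (10.1%) against 1.49%. Both strands were searched, and NRF1 letters that read the same on both strands count on each. Below are the 250 bases before the start, 5′ to 3′, of 4 members, with the letters of the 3 motifs in capitals. Atp5k (chr5:108434400-108434649, minus strand) and Cox5b (chr1:36691237-36691486, plus strand) are members whose level differed between genotypes, the first with NRF1 letters and the second with none of the 3 motifs. Sdha (chr13:74350241-74350490, minus strand) has 3 sets of NRF1 letters and passed no test, and Cox8b (chr7:140900447-140900696, minus strand), a muscle isoform gene with few CpG, was listed at 0 in all 10 libraries.
Atp5k: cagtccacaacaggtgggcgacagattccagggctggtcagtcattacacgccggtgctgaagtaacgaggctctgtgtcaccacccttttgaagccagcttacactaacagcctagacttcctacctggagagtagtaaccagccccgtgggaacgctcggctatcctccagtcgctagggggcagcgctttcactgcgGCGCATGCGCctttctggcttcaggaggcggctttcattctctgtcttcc
Cox5b: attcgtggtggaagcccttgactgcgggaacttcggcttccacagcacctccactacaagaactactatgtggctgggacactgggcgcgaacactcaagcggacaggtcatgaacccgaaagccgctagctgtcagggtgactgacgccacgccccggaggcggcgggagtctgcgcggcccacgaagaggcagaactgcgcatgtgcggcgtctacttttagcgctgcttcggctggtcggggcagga
Sdha: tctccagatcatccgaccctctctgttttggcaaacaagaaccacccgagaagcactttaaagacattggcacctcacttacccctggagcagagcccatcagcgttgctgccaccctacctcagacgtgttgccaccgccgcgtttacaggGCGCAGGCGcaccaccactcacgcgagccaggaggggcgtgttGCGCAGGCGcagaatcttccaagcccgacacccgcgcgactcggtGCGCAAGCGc
Cox8b: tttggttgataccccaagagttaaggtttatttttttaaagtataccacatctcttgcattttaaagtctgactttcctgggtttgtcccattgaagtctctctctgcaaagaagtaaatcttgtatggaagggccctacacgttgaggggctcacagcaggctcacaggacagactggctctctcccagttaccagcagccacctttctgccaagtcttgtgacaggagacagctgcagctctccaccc

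Members with and without motif letters are set side by side here for the comparison of genotypes that follows. Of the 33 tested members with at least 1 motif, 1 passed (Atp5k) and the median log2 change was 0.31. Of the 32 tested members with a window and no motif, 5 passed (Cox5b, Cox7a2, Ndufa3, Ndufa4 and Uqcr10) and the median was 0.25. Over all tested genes, 5.33% passed. The counts of members are given without a test, and a match of letters is not evidence of binding.

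Against all 6 controls, 7 respiratory chain genes were higher in mutants and 1 was lower: Ndufa3 and Ndufa4 of complex I, Uqcr10 of complex III, Cox5b, Cox6a2 and Cox7a2 of complex IV and Atp5k of complex V rose, and Cox8c of complex IV fell. Values were compared with limma on log2(RPKM + 0.5), which understates the change of low genes, with Benjamini-Hochberg adjustment over all 11338 genes and a threshold of 0.05. The 8 calls were 9.88% of the 81 tested members, beside 5.33% of all tested genes (3.1% higher and 2.22% lower). Of the calls over all genes, 58.3% were increases, which became 47.2% with median centring and 48.9% with quantile normalization. At an unadjusted p under 0.05 there were 26 of 81 members, beside 19.8% of all tested genes. In 5 members every mutant was above all controls (Atp5g1, Atp5k, Cox5b, Ndufa7 and Ndufa13) and in Cox8c every mutant was below. These 6 of 81 members without overlap are a share no higher than the 8.18% of all tested genes (4.62% higher and 3.56% lower).

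Most members had a small positive change that did not pass the test. The log2 change was above 0 in 68 of 81 members (84%), against 52.7% of all tested genes, and its median was 0.28 against 0.03. With each library's trend with transcript length and GC content removed, 69.1% were above 0, and the median was 0.11 against 0.0023. As fitted without that step, the medians were 0.26 in complex I, 0.18 in II, 0.34 in III, 0.31 in IV and 0.29 in V. Members are not replicates, and the differences between complexes were not tested. The calls were 2 of 37 members in complex I, 0 of 4 in II, 1 of 9 in III, 4 of 15 in IV and 1 of 16 in V. Complexes go by gene name here, so Ndufa4 counts in complex I, although now known as a subunit of complex IV. In complex II, none of the 4 had an unadjusted p under 0.05. Without f/+; Zp3-cre replicate 3 and f/- replicate 2, the members' median was 0.31 against 0.013 for all tested genes. In that setting 8 members passed, 7 of the first 8 together with Atp5g3. Cox6a2 had a limma adjusted p of 0.10 (0.015 to 0.18 over all alternatives). The setting was chosen after seeing the data, and the share of all tested genes called in it is not given here.

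**Figure D2:**
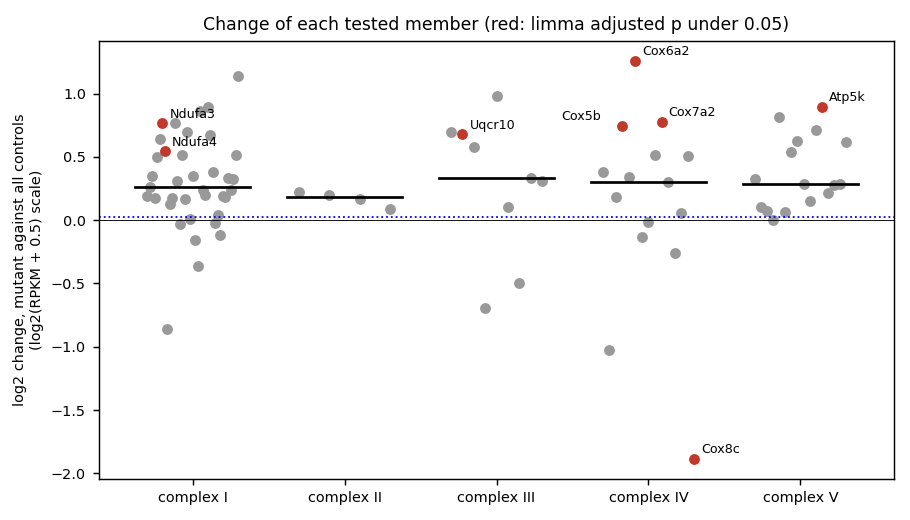
Log2 change of each of the 81 tested members, mutant against all controls, on the vertical axis, by complex (members in alphabetical order from left to right); red points passed limma's adjusted threshold, black bars are medians of each complex and the dotted blue line is the median of all tested genes. The 5 medians lie between 0.18 and 0.34, above the dotted line at 0.03, and Cox8c is the lowest point at -1.89.

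Of the genes placed in complex I by name, Ndufa3, which lies outside its catalytic core, and Ndufa4 were higher in mutants. Ndufa3 (chr7:3617373-3620327, plus strand, GENCODE M21 on GRCm38), an accessory subunit of the membrane arm, was at 28.0, 35.7, 46.9 and 52.5 RPKM in mutants, 19.2, 28.1, 21.8 and 20.2 RPKM in f/+; Zp3-cre and 21.3 and 29.9 RPKM in f/-. Mutants overlapped controls in 1 library, at 28.0 RPKM, and averaged 40.8 ± 11.0 RPKM (SD, n = 4) against 23.4 ± 4.46 RPKM (SD, n = 6), a log2 change of 0.77 (SE 0.19, limma adjusted p = 0.028). An exon of Ndufa3 overlaps Tfpt on the other strand, and the library kit does not mark strand; Tfpt was at 22.0 ± 6.10 RPKM in mutants (n = 4) and 23.3 ± 5.57 RPKM in controls (n = 6), limma adjusted p = 0.87. Ndufa4 (chr6:11900292-11907497, minus strand), once counted as a complex I subunit and now known as a subunit of complex IV, was at 93.1, 74.1, 88.2 and 99.0 RPKM in mutants, 55.0, 54.8, 60.1 and 59.5 RPKM in f/+; Zp3-cre and 76.0 and 58.6 RPKM in f/-. The lowest mutant lay just below the highest control, f/- replicate 1. The means were 88.6 ± 10.6 RPKM (SD, n = 4) against 60.7 ± 7.86 RPKM (SD, n = 6), with a log2 change of 0.54 (SE 0.12, limma adjusted p = 0.016).

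The core subunits Ndufs1, Ndufs3, Ndufs7, Ndufs8, Ndufv1 and Ndufv2, which include those with the flavin and iron-sulphur centres, had log2 changes of 0.041 to 0.52, and none of these 6 passed. Their control levels ran from 2.88 RPKM (Ndufs3) to 15.5 RPKM (Ndufs7). Ndufv2, the iron-sulphur subunit with the largest of these changes, was at 14.6, 11.5, 10.6 and 11.4 RPKM in mutants, 8.33, 8.15, 12.0 and 7.24 RPKM in f/+; Zp3-cre and 6.57 and 7.75 RPKM in f/-; every mutant was above all controls but 1, f/+; Zp3-cre replicate 3, and the change was 0.52 (adjusted p = 0.14) by limma. Among 30 members of complex I outside the core, 25 had a change above 0. The most positive was that of Ndufv3, a small subunit beside the flavin site, at 38.3, 27.2, 10.5 and 33.6 RPKM in mutants, 12.1, 12.6, 16.6 and 9.44 RPKM in f/+; Zp3-cre and 14.7 and 4.83 RPKM in f/-. Its mutants spread from 10.5 to 38.3 RPKM and overlapped the controls, and its change was 1.14 (adjusted p = 0.089) by limma. Ndufb10, an accessory subunit of the membrane arm, was at 12.2, 11.5, 9.06 and 10.4 RPKM in mutants, 8.30, 9.46, 8.08 and 7.68 RPKM in f/+; Zp3-cre and 4.73 and 6.85 RPKM in f/-. Its f/- values were the lowest and its mutant values mostly the highest, and it passed in the comparison with f/-: 0.86 (limma adjusted p = 0.049), with 0.51 (adjusted p = 0.16) against all controls.

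Complex II, succinate dehydrogenase, had 4 members with changes between 0.09 and 0.22 and no call. Sdhd, a membrane anchor and the complex's highest member, was at 86.8, 66.7, 74.4 and 49.1 RPKM in mutants, 60.5, 61.2, 79.1 and 64.2 RPKM in f/+; Zp3-cre and 75.5 and 46.4 RPKM in f/-. The mutant values lay within and around those of the controls, with a change of 0.09 (adjusted p = 0.81) by limma. Sdha, the flavoprotein that oxidizes succinate, was at 31.7, 44.9, 44.9 and 41.2 RPKM in mutants, 31.7, 30.9, 35.3 and 37.0 RPKM in f/+; Zp3-cre and 30.2 and 43.8 RPKM in f/-. Its groups also overlapped, with a change of 0.22 (adjusted p = 0.42). Sdhb, the iron-sulphur subunit, differed most between the f/- pair, at 17.3 and 4.23 RPKM.

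Complex III, the cytochrome bc1 complex, showed 1 increase, in the small subunit gene Uqcr10 (chr11:4701973-4704342, minus strand). It was at 62.0, 69.6, 51.2 and 58.6 RPKM in mutants, 27.9, 33.7, 34.0 and 33.3 RPKM in f/+; Zp3-cre and 51.4 and 48.9 RPKM in f/-. All mutants were above the f/+; Zp3-cre libraries, whereas the f/- libraries reached the lower end of the mutants. The means were 60.4 ± 7.64 RPKM (SD, n = 4) against 38.2 ± 9.57 RPKM (SD, n = 6), with a log2 change of 0.68 (SE 0.17, limma adjusted p = 0.033). Against f/+; Zp3-cre alone the change was 0.89 (SE 0.12, limma adjusted p = 0.001), and against f/- it was 0.26 (adjusted p = 0.34). The difference between the control groups was -0.64 (f/+; Zp3-cre below f/-, adjusted p = 0.11). The redox and core subunits Cyc1 (cytochrome c1), Uqcrfs1 (the Rieske iron-sulphur protein), Uqcrc1 and Uqcrc2 did not pass, with changes of 0.69, -0.50, 0.98 and 0.10. Uqcrc1 was low and scattered, at 5.27, 0.268, 7.93 and 2.04 RPKM in mutants, 1.07, 1.60, 0.577 and 0.517 RPKM in f/+; Zp3-cre and 1.20 and 2.04 RPKM in f/-, and its change was 0.98 (adjusted p = 0.36). Uqcrq, a small subunit and the complex's highest member, was at 105, 77.6, 59.5 and 79.0 RPKM in mutants, 46.1, 55.3, 84.0 and 52.9 RPKM in f/+; Zp3-cre and 94.1 and 60.1 RPKM in f/-, with overlapping groups and a change of 0.31 (adjusted p = 0.42). Uqcrb had the most negative change of the complex, -0.69 (adjusted p = 0.55) by limma, and f/- replicate 2 held its highest value: it was at 2.17, 0.742, 1.64 and 0.848 RPKM in mutants, 1.46, 1.94, 2.39 and 1.44 RPKM in f/+; Zp3-cre and 0.736 and 15.3 RPKM in f/-.

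Complex IV, cytochrome c oxidase, held 4 of the 8 calls when counted by gene name, 3 increases and the 1 decrease. Cox5b (chr1:36691449-36693681, plus strand), a zinc-binding subunit on the matrix side, was at 19.0, 14.2, 17.2 and 20.8 RPKM in mutants, 10.8, 10.6, 13.1 and 8.67 RPKM in f/+; Zp3-cre and 10.3 and 8.93 RPKM in f/-. All 4 mutants lay above all 6 controls. The means were 17.8 ± 2.83 RPKM (SD, n = 4) against 10.4 ± 1.60 RPKM (SD, n = 6), which is 1.71 times the control mean and a log2 change of 0.75 (SE 0.16, limma adjusted p = 0.018). Cox5b passed against each control group, by 0.70 against f/+; Zp3-cre (limma adjusted p = 0.04) and by 0.84 against f/- (adjusted p = 0.045).

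Cox7a2 (chr9:79755361-79759878, minus strand), the widely expressed isoform of subunit 7a, was at 40.7, 53.0, 45.9 and 68.5 RPKM in mutants, 34.3, 28.4, 46.1 and 30.0 RPKM in f/+; Zp3-cre and 26.2 and 18.7 RPKM in f/-. Mutant values began within the control range, whose top was f/+; Zp3-cre replicate 3. The means were 52.0 ± 12.1 RPKM (SD, n = 4) against 30.6 ± 9.18 RPKM (SD, n = 6), with a log2 change of 0.78 (SE 0.21, limma adjusted p = 0.048). Cox6a2 (chr7:128205435-128206387, minus strand), the heart and muscle isoform of subunit 6a, was at 10.7, 7.29, 19.6 and 22.7 RPKM in mutants, 5.56, 7.04, 5.15 and 8.89 RPKM in f/+; Zp3-cre and 3.10 and 4.47 RPKM in f/-. Mutant replicates 3 and 4 were the highest libraries, and mutant replicate 2 lay within the control range. The means were 15.1 ± 7.27 RPKM (SD, n = 4) against 5.70 ± 2.03 RPKM (SD, n = 6), with a log2 change of 1.26 (SE 0.32, limma adjusted p = 0.039).

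Cox8c (chr12:102899316-102900526, plus strand), an isoform of subunit 8 known from testis, was low in all groups. It was listed at 0 in mutant replicates 1, 2 and 4 and at 0.885 RPKM in replicate 3, against 1.23, 2.49, 2.30 and 1.25 RPKM in f/+; Zp3-cre and 1.92 and 2.49 RPKM in f/-. All controls lay above all mutants. With the approximate depths, the controls' values correspond to about 35 to 83 reads and that of mutant replicate 3 to about 22 reads. The fitted log2 change was -1.89 (SE 0.36, limma adjusted p = 0.0076), and its size depends on the pseudocount, from -0.83 with 2 to -3.48 with 0.1. Cox8c also passed against f/+; Zp3-cre (-1.80 (adjusted p = 0.023)) and against f/- (-2.06 (adjusted p = 0.033)), and in the 23 alternatives in which it could be tested. Its place among tested genes rests on the control libraries, since 3 of 4 mutants were at 0.

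Of the other tested complex IV genes none passed. Cox4i1, the common form of regulatory subunit 4, was at 95.3, 83.6, 141 and 85.7 RPKM in mutants, 74.6, 71.8, 59.8 and 80.8 RPKM in f/+; Zp3-cre and 96.6 and 76.0 RPKM in f/-, with a change of 0.38 (adjusted p = 0.19) by limma. Mutant replicate 3 stood highest, and the other 3 mutants overlapped f/-. Cox6a1 was at 171, 238, 167 and 126 RPKM in mutants, 112, 117, 189.7 and 111 RPKM in f/+; Zp3-cre and 171 and 125 RPKM in f/-, and its groups overlapped, with a change of 0.35 (adjusted p = 0.33). Cox8a was at 51.8, 59.2, 70.3 and 41.5 RPKM in mutants and 29.0 to 49.1 RPKM in controls, a change of 0.51 (adjusted p = 0.099). Cox7b, one of the 5 tested members of the complex with a change below 0, was at 19.6, 14.4, 22.0 and 16.3 RPKM in mutants and 17.3 to 24.0 RPKM in controls, a change of -0.26 (adjusted p = 0.39).

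Complex V had 1 call, in Atp5k (chr5:108433244-108434448, minus strand), which encodes subunit e of the membrane part, where ATP synthase dimers form. It was at 122, 176, 117 and 122 RPKM in mutants, 61.5, 62.1, 111 and 62.9 RPKM in f/+; Zp3-cre and 91.8 and 51.1 RPKM in f/-. All 4 mutants lay above all 6 controls, though f/+; Zp3-cre replicate 3 came close to the lowest mutant. The means were 134 ± 28.2 RPKM (SD, n = 4) against 73.4 ± 23.0 RPKM (SD, n = 6), which is 1.83 times the control mean and a log2 change of 0.90 (SE 0.20, limma adjusted p = 0.018). A near-identical copy of Atp5k exists elsewhere in the genome, and its part in the level was not tested. Against f/+; Zp3-cre the change was 0.87 (adjusted p = 0.044) and against f/- it was 0.94 (adjusted p = 0.071).

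All 16 tested members of complex V had a fitted change above 0, from 0.004 (Atp5d) to 0.90 (Atp5k). They include Atp5s (0.28) and Atp5sl (0.62), which are counted here by name only. The change of Atp5d fell below 0 with a pseudocount of 2, median centring, quantile normalization or removal of the trend with transcript length and GC content. The 5 genes of the catalytic F1 head ranged widely: Atp5b was at 141, 138, 136 and 139.8 RPKM in mutants, 131, 146, 89.4 and 145 RPKM in f/+; Zp3-cre and 111 and 165 RPKM in f/-, with no separation of the groups (change 0.10). Atp5e, the smallest subunit of the head, was at 199.6, 174, 182 and 229 RPKM in mutants, 86.3, 91.4, 174 and 88.1 RPKM in f/+; Zp3-cre and 208 and 72.4 RPKM in f/-, and its change of 0.82 did not pass (adjusted p = 0.087), as the 2 highest controls, f/+; Zp3-cre replicate 3 and f/- replicate 1, reached the mutant range. Atp5d was at 8.92, 8.02, 7.99 and 8.17 RPKM in mutants, 6.94, 8.29, 6.56 and 8.23 RPKM in f/+; Zp3-cre and 7.48 and 13.4 RPKM in f/-, with f/- replicate 2 highest. The 7 genes of the stator stalk and membrane part had changes of 0.06 to 0.90 and 1 call.

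The limits of the single calls differed. Cox8c kept its call without any single library. Atp5k lost it without mutant replicate 2 (limma adjusted p = 0.062), Cox5b without mutant replicate 1 or 4 (0.055 to 0.056) and Ndufa4 without mutant replicate 1 or 4 (0.053 to 0.056). Ndufa3 lost it without f/+; Zp3-cre replicate 1, 3 or 4 or mutant replicate 3 or 4 (0.055 to 0.090), and Uqcr10 without mutant replicate 1, 2 or 4 or any 1 of the 4 f/+; Zp3-cre libraries (0.063 to 0.098). Cox6a2 lost it without either f/- library, mutant replicate 1, 3 or 4 or f/+; Zp3-cre replicate 1, 2 or 3 (0.052 to 0.12). Cox7a2 lost it without any 1 library other than f/+; Zp3-cre replicate 3 (0.050 to 0.14). The count of 8 became 2 without mutant replicate 4, 3 without mutant replicate 1, 4 without f/+; Zp3-cre replicate 1, and 5 without f/+; Zp3-cre replicate 2 or 4. The shares of all tested genes called without these libraries are not given here.

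**Figure D3:**
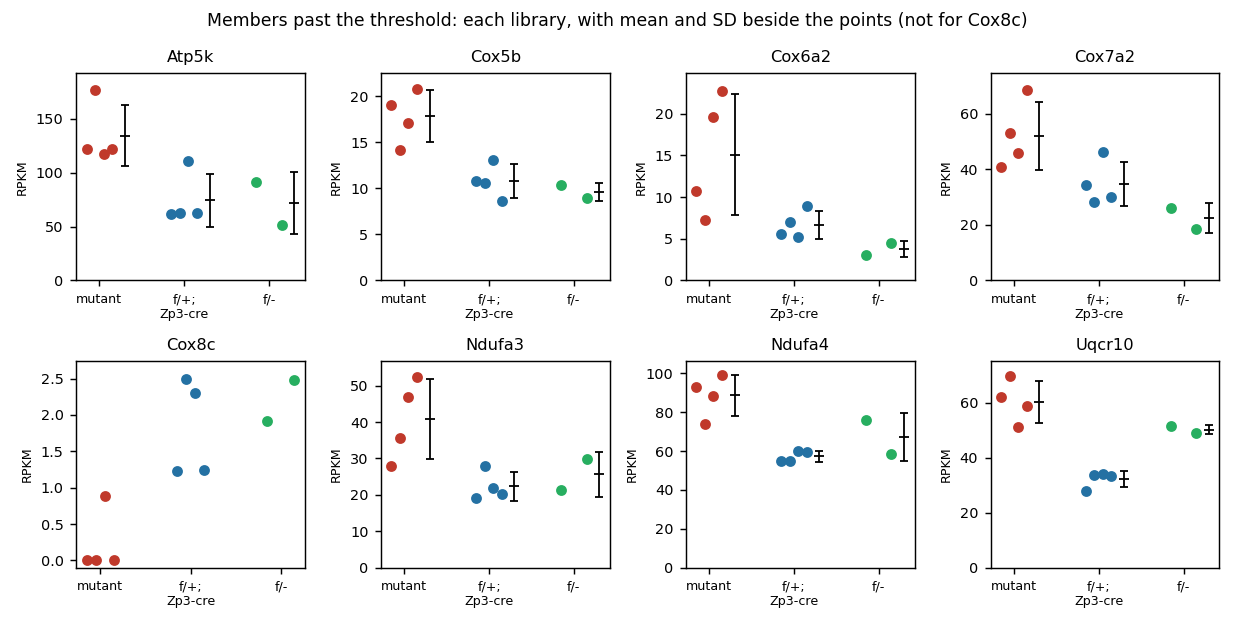
RPKM (vertical axis, linear from 0 except for a small margin below 0 for Cox8c) of the 8 genes past the threshold in each of the 10 libraries, by group; bars beside the points give mean and SD, left out for Cox8c because 3 mutant libraries are at 0. Mutant and control points do not overlap for Atp5k, Cox5b and Cox8c, and overlap in at least 1 library for the other 5.

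Several complex IV subunits have a form restricted to some tissues, and the oocyte libraries held a mixed set of them. Cox6b2, the testis-type form of subunit 6b, averaged 27.2 RPKM over the 10 libraries beside 36.3 RPKM for Cox6b1, and made up 32.5% to 52.6% of their sum. It was at 35.5, 30.2, 24.9 and 18.7 RPKM in mutants, 28.3, 30.2, 31.8 and 28.0 RPKM in f/+; Zp3-cre and 23.9 and 20.7 RPKM in f/-. The common Cox6b1 was at 32.0, 30.7, 49.2 and 25.6 RPKM in mutants, 29.9, 39.0, 48.0 and 33.0 RPKM in f/+; Zp3-cre and 49.6 and 25.8 RPKM in f/-. Neither passed (Cox6b2 -0.01 (adjusted p = 0.98), Cox6b1 -0.13 (adjusted p = 0.78), both by limma), and the fitted sign turned with array weights for Cox6b1 and with the replicate block or 1 of several libraries left out for Cox6b2.

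Cox6a2 made up 2.97% to 15.2% of Cox6a1 and Cox6a2 together in mutants and 1.78% to 7.39% in controls, so the ranges overlapped. Cox4i2, the oxygen-responsive form of subunit 4, took 0.0821% to 3.73% of its pair in mutants and 3.67% to 8.61% in controls. It was at 2.69, 1.17, 5.44 and 0.0704 RPKM in mutants, 2.98, 3.64, 2.36 and 3.67 RPKM in f/+; Zp3-cre and 3.68 and 7.16 RPKM in f/-, and its change of -1.03 did not pass (limma adjusted p = 0.3). Cox8c took 0% to 1.24% of the sum of Cox8a and Cox8c in mutants and 3.34% to 7.89% in controls.

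The muscle forms Cox7a1 and Cox8b and the testis form Cox7b2 were at or near 0. Cox7b2 and Cox8b were listed at 0 in all 10 libraries, and Cox7a1 at 0 in 6 libraries and at most at 0.178 RPKM. Ndufa4l2, a relative of Ndufa4 known as a hypoxia-induced gene, was at 0.220, 0, 0.380 and 0.725 RPKM in mutants, 0.709, 0.982, 3.21 and 0.497 RPKM in f/+; Zp3-cre and 0.226 and 1.31 RPKM in f/-. It was highest in f/+; Zp3-cre replicate 3, with a change of -0.86 (limma adjusted p = 0.3). Its place among tested genes rests on the controls, since its mutants were mostly below 0.5 RPKM. The ring that rotates in the ATP synthase is built from one protein encoded by Atp5g1, Atp5g2 and Atp5g3. Atp5g1 was at 8.07, 7.69, 7.99 and 8.41 RPKM in mutants, 3.60, 5.69, 6.70 and 5.35 RPKM in f/+; Zp3-cre and 4.65 and 6.91 RPKM in f/-, with every mutant above every control by a narrow margin and a change of 0.54 (adjusted p = 0.15) by limma. Atp5g3 was at 17.3, 10.3, 10.1 and 13.5 RPKM in mutants, 7.57, 7.07, 17.1 and 6.81 RPKM in f/+; Zp3-cre and 6.86 and 5.80 RPKM in f/- and made up 45.7% to 71.8% of the sum of Atp5g1 and Atp5g3. Atp5g2 stayed at 0.0273 to 0.202 RPKM, but it has 2 near-identical copies elsewhere in the genome.

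**Figure D4:**
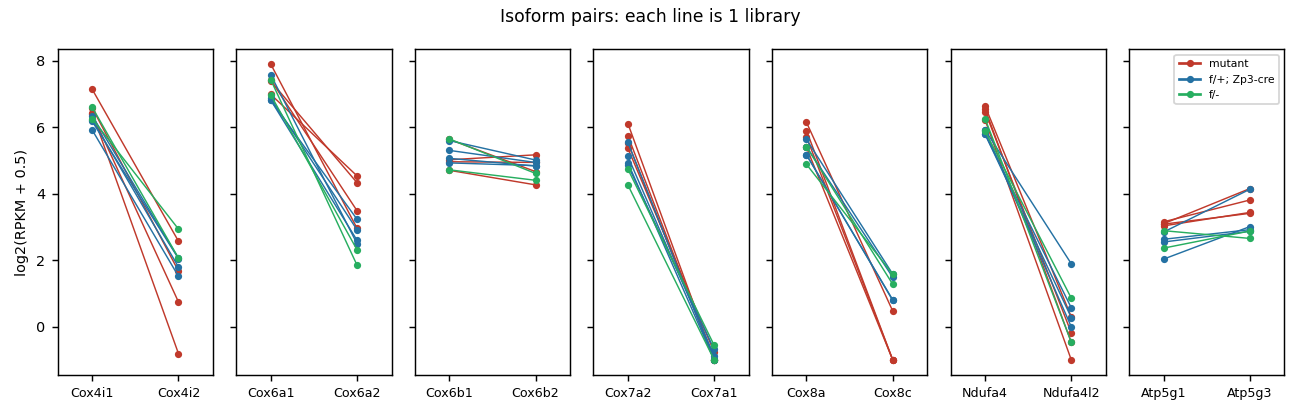
Level (log2 of RPKM plus 0.5, vertical axis) of the common and the other form of 7 subunit pairs; each line joins the pair in 1 library and colours give the genotype. Cox6b1 and Cox6b2 lie at like heights in all 10 libraries, Cox7a1 lies near the floor at -1, and 3 of the 4 mutant lines of Cox8c end at the floor.

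The members' median level shifted from library to library, also within a genotype, but the complexes did not always go the same way. In mutant replicate 4 the median log2 deviation was 0.26 in complex I and -0.09 in IV. In f/- replicate 1 it was 0.35 in complex II and -0.095 in V. The median log2 deviation of the 81 members from their own mean over 10 libraries was 0.23, 0.11, 0.17 and 0.16 in the 4 mutants. In f/+; Zp3-cre it was -0.26, -0.20, 0.24 and -0.20, so that replicate 3 was as high as the mutants. In f/- it was 0.09 and -0.25. In mutants 66.7% to 76.5% of members were above their mean, in f/+; Zp3-cre replicate 3 it was 76.5%, and in the other 3 libraries of that group 13.6% to 25.9%. Within f/+; Zp3-cre, replicate 3 had the highest median deviation in each of complexes I to V.

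Other short transcripts also varied between libraries. The 1191 other tested genes with a transcript of up to 1 kb had median deviations of 0.15, 0.03, 0.14 and 0.04 in mutants, -0.09, -0.07, 0.13 and -0.10 in f/+; Zp3-cre, and 0.02 and -0.31 in f/-. Their median change, mutant against all controls, was 0.16, with 63.1% above 0 and 5.63% called. These medians lay nearer to 0 than those of the members in 9 of the 10 libraries and farther from 0 in f/- replicate 2, and the differences were not tested. With the trend of each library with transcript length and GC content removed, 3 members passed (Atp5k, Cox5b and Cox8c). The share of all tested genes called in that setting is not given here. The median change was 0.11 over all tested members, 0.047 in complex I and 0.053 in IV. The medians of complexes II, III and V in that setting are not given here.

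**Figure D5:**
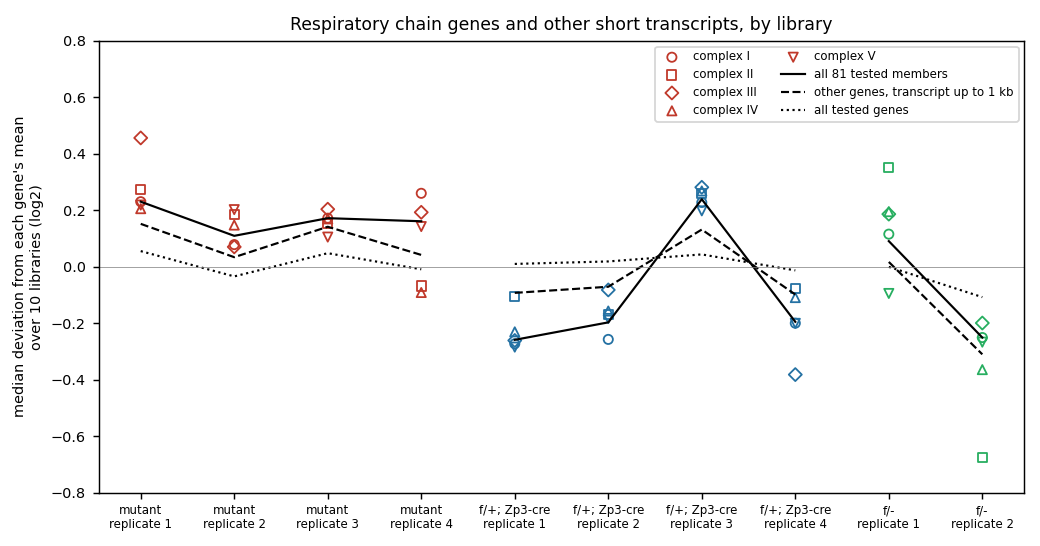
Median log2 deviation from each gene's mean over 10 libraries (vertical axis) in each library (horizontal axis): symbols give complexes I to V, the solid line all 81 tested members, the dashed line 1191 other genes with short transcripts and the dotted line all tested genes. The 4 mutants (0.11 to 0.23) and f/+; Zp3-cre replicate 3 (0.24) lie above 0 on the solid line, and the dashed line lies nearer to 0 than the solid line except in f/- replicate 2 (-0.31 against -0.25).

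The 2 control groups were also compared one by one with the mutants, from a model with 3 groups that share the spread, and these comparisons share the mutant libraries. Against f/+; Zp3-cre, 5 members were higher (Ndufa3, Ndufa4, Uqcr10, Cox5b and Atp5k) and Cox8c was lower, 6 of 81 (7.41%) beside 4.89% of all tested genes (2.76% higher and 2.13% lower), and 27 had an unadjusted p under 0.05 beside 19.2% of all tested genes. Ndufa4 rose by 0.62 (SE 0.12, adjusted p = 0.011) in this comparison. Against f/-, 4 members were higher (Ndufb10, Cox5b, Cox6a2 and Cox7a2) and Cox8c was lower, 5 of 81 (6.17%), a share near the 4.84% of all tested genes (3.25% higher and 1.59% lower), and 15 had an unadjusted p under 0.05 beside 21.5% of all tested genes. Cox7a2 rose by 1.19 (SE 0.24, adjusted p = 0.015) and Cox6a2 by 1.75 (SE 0.40, adjusted p = 0.03).

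With 2 libraries, f/- allowed little precision. The count against f/- was 17 without f/- replicate 1, 2 without f/- replicate 2, mutant replicate 1 or f/+; Zp3-cre replicate 4, 3 without mutant replicate 3, and 1 without f/+; Zp3-cre replicate 1, f/+; Zp3-cre replicate 2 or mutant replicate 4. That against f/+; Zp3-cre was 10 without either f/- library, 3 without mutant replicate 1 or f/+; Zp3-cre replicate 2, and 2 without f/+; Zp3-cre replicate 1, f/+; Zp3-cre replicate 4 or mutant replicate 4. Between the control groups limma called no member (beside 0.0706% of all tested genes, 0.0265% higher and 0.0441% lower), 6 had an unadjusted p under 0.05 (beside 14% of all tested genes) and 38 of 81 changes were above 0; without f/- replicate 1, 5 members passed. The largest of those 6 differences was that of Ndufa11, lower in f/+; Zp3-cre by -0.93 on the log2 scale (adjusted p = 0.14). For the counts with 1 library left out, the shares of all tested genes are not given here.

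Genes that work beside the chain were counted in the same fit. Of 45 tested assembly factors, 2 rose: Ndufaf3, needed to build complex I, was at 26.5 ± 11.6 RPKM in mutants (SD, n = 4) and 9.80 ± 1.25 RPKM in controls (SD, n = 6), a log2 change of 1.31 (limma adjusted p = 0.0034). Uqcc2, needed to build complex III, was at 23.3 ± 3.61 and 13.4 ± 1.70 RPKM, a change of 0.77 (adjusted p = 0.0079), and it did not pass with the trend with transcript length and GC content removed (adjusted p = 0.083). These 2 calls are 4.44% of the list, near the 5.33% of all tested genes, and the list's median change was -0.02. None of 17 electron carrier and coenzyme Q genes, 13 citric acid cycle genes, 10 carriers of ATP and phosphate, and 13 genes that copy and transcribe mitochondrial DNA passed, with 3, 2, 2 and 1 at an unadjusted p under 0.05. Over all tested genes, 19.8% had an unadjusted limma p under 0.05.

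In 3 further lists 1 gene each passed, beside 5.33% of all tested genes. Pdp2, a phosphatase that activates pyruvate dehydrogenase, was at 0.0458 to 0.105 RPKM in mutants and 0.496 to 1.49 RPKM in controls, a log2 change of -1.40 (limma adjusted p = 0.016), 1 of 11 genes of pyruvate entry. Its place among tested genes rests on the controls, since all 4 mutants were below 0.5 RPKM. Nfe2l2, a transcription factor of antioxidant genes, fell from 13.2 ± 1.74 RPKM (SD, n = 6) to 7.75 ± 1.39 RPKM (SD, n = 4), a change of -0.73 (adjusted p = 0.023), 1 of 11 regulators of respiratory gene transcription. It lost the call without mutant replicate 1, 2 or 4 or f/+; Zp3-cre replicate 1, 2 or 4 (limma adjusted p of 0.051 to 0.067), whereas Ndufaf3, Uqcc2, Pdp2 and Gpx1 kept theirs without any single library. Nrf1, from the same list, did not pass: it was at 17.6 ± 3.62 RPKM in mutants and 15.7 ± 3.61 RPKM in controls (adjusted p = 0.69). Gpx1, a glutathione peroxidase, rose from 7.23 ± 1.85 to 17.4 ± 1.36 RPKM, a change of 1.25 (adjusted p = 0.0019), 1 of 6 genes that remove superoxide and peroxide.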

How the data were processed

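RNA-seq libraries from 10 pools of GV oocytes were compared. Per the labels' protocols, RNA came from an RNeasy Micro kit, its cDNA was amplified by NuGen's single-primer method, and TruSeq DNA libraries, a kind without strand information, were sequenced. Such amplification can shift values with transcript length and GC content. The authors deposited RPKM, reads relative to transcript length and depth, in a table of 34768 RefSeq rows. Per the submitters' processing notes, bcl2fastq 1.8.3, STAR and mm10 were used; no counting tool is named there or in the labels. The row with the highest mean stood for a symbol (114 rows for 85 members).

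From these RPKM, tests were run with limma 3.58.1 in R 4.3.3 on log2(RPKM + 0.5) with an empirical Bayes trend and Benjamini-Hochberg adjustment over 11338 genes. A model with 2 levels gave mutant against all controls, and a model with 3 groups gave the other comparisons. All adjusted p-values are from limma. It was also run on simulated data with noise independent between genes. That simulation held no shifts shared by many genes of a library, so it does not cover those seen here. Setdb1 was tested by exact permutation. Each library came from a separate mouse, so each counted as 1 replicate. None of the 45 library pairs held identical columns, which does not show that the libraries are independent. Deviations from each gene's mean correlated at 0.56 to 0.59 between f/+; Zp3-cre replicates 1, 2 and 4. Between these and replicate 3 the correlation was 0.30 to 0.34. It was 0.0022 to 0.27 between mutants and -0.10 between the f/- libraries. The cause of these differences was not tested.

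Read totals were estimated from the spacing of low values, of which 67.9% to 71.5% then lay within 0.1 of a whole read. At these depths 10 reads on a 2 kb transcript correspond to 0.0687 to 0.109 RPKM, and amplified reads are not independent molecules. Positions come from GENCODE M21 (GRCm38), copies were searched with blastn 2.17.0, and promoters are from RefSeq (GRCm38.p6).

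Named with values are members past the threshold in any comparison, Cox5b and Uqcr10, the highest, most positive and most negative member of each complex, the isoform pairs, and up to 3 called genes of each other list. Some further members (Ndufv2, Sdhb, Ndufa7, Ndufa11 and Ndufa13, for example) were named after their values were seen. The members and lists were chosen with earlier results of these data known. Alternatives covered the pseudocount, filter, scaling, length and GC trend, spread, library weights, rows, a replicate block and left-out libraries. The values of 1 member that entered the tests and counts are not reported here.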

Additional observations from a re-analysis of the deposited data

Results flagged for a closer look

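In 68 sets of 4 libraries (named members and complex medians in mutants and in f/+; Zp3-cre), 12 held a library far from the other 3 by Dixon's test. For a single set, chance gives about 1 in 20. The 68 sets share libraries, and the complex medians include the named members, so 1 in 20 is no measure for the count of 12. Among the 12, 8 were f/+; Zp3-cre replicate 3. In it Atp5e was at 174 RPKM (86.3 to 91.4 in the other 3), Atp5g3 at 17.1 RPKM (6.81 to 7.57), Atp5k at 111 RPKM (61.5 to 62.9) and Cox6a1 at 189.7 RPKM (111 to 117). Its median level was 17.9 RPKM in complex I (12.1 to 12.9 in the other 3), 39.9 RPKM in II (33.8 to 34.6), 31.0 RPKM in III (20.2 to 21.1) and 38.5 RPKM in IV (28.0 to 28.4).

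The other 4 were single genes. Uqcr10 was at 27.9 RPKM in f/+; Zp3-cre replicate 1, below the other 3 (33.3 to 34.0 RPKM). Atp5k was at 176 RPKM in mutant replicate 2 (117 to 122 RPKM in the other 3). Cox8c was at 0.885 RPKM in mutant replicate 3 and Cox7a1 at 0.0892 RPKM in mutant replicate 1, each listed at 0 in the other 3 mutants. With 3 libraries at 0, any value above 0 passes Dixon's test, so it says nothing about these genes.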

How the results depend on the processing

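The direction held in every alternative for the 8 members past the threshold against all controls. Cox8c also kept its call in all 23 alternatives that could test it, since a mean of at least 2 RPKM removes it, whereas Cox5b and Atp5k lost theirs in 3 of 24, Ndufa4 in 5, Ndufa3 in 8, Uqcr10 in 11, Cox6a2 in 13 and Cox7a2 in 17. The count of 8 became 2 without a filter on low values (Cox5b and Cox8c), 2 without the empirical Bayes trend (the same genes), 3 with the trend with transcript length and GC content removed, and 26 with array weights, and was 2 to 11 with 1 library left out. Against f/+; Zp3-cre, the count of 6 became 2, 2, 3 and 26 in these settings and 3 with median centring, and was 2 to 10 with 1 library left out. Against f/-, the count of 5 became 0 without the filter, 3 with quantile normalization, 2 with the length and GC trend removed and 0 with array weights, and was 1 to 17 with 1 library left out. Between the control groups it was 0 to 5 with 1 library left out. The shares of all tested genes called in these settings are not given here. The counts therefore show only how the members' calls depend on the setting. The cause of the changes in count was not tested. The complex medians with 1 library left out were 0.23 to 0.33 in I, 0.01 to 0.23 in II, 0.30 to 0.50 in III, 0.19 to 0.35 in IV and 0.24 to 0.37 in V. With the length and GC trend removed they were 0.047 in I and 0.053 in IV, and those of II, III and V are not given here.

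Among single members without a call, the sign turned for Atp5d (-3e-04 with a pseudocount of 2, -0.056 with median centring, -0.059 with quantile normalization, -0.25 with the length and GC trend removed, -0.057 to 0.14 with 1 library left out), Cox6b1 (0.11 with array weights), Cox6b2 (-0.15 to 0.15 with 1 library left out) and Sdhd (-0.026 to 0.25 with 1 library left out). The alternative without f/+; Zp3-cre replicate 3 and f/- replicate 2, and leaving out single libraries for the called genes of the other lists, were chosen after seeing the data.

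Replicate numbers are shared between groups in the labels, but nothing says that they mark a shared litter or day. The correlation of deviations of same-numbered libraries was -0.05 to 0.03 over 8 pairs, and none was over 0.1. Deviations were taken from group means, so the f/- libraries mirror each other and their pairs are not separate evidence. With so few libraries per group, these correlations cannot settle whether numbers mark pairs. As no label says so, the numbers were not taken to pair libraries. With the replicate number as a block, 5 members passed against all controls (Atp5k, Cox6a2, Cox8c, Ndufa3 and Ndufa4) and 1 against f/-, and Cox6b2 changed by 0.01 (0.0077).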

Other observations

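Cytochrome c, the carrier between complexes III and IV, has a somatic and a testis form in mice. The somatic gene Cycs was at 0 to 0.0539 RPKM in mutants and 0 to 0.0379 RPKM in controls, and the testis gene Cyct at 0.674 to 11.1 RPKM in mutants and 3.27 to 17.8 RPKM in controls, with a log2 change of -0.34 (limma adjusted p = 0.80). Near-identical copies of these genes were not searched. Among the carriers that exchange ATP and ADP, the germ cell form Slc25a31 was at 17.8 ± 2.88 RPKM in mutants (SD, n = 4) and 17.9 ± 3.42 RPKM in controls (SD, n = 6). Slc25a4 was at 14.2 ± 4.17 and 19.7 ± 3.94 RPKM, and Slc25a5 at 9.94 ± 2.81 and 11.0 ± 3.22 RPKM. None of the 3 passed (limma adjusted p of 0.99, 0.22 and 0.84). Citrate synthase (Cs) was at 102 ± 5.88 RPKM in mutants and 81.7 ± 7.51 RPKM in controls, a log2 change of 0.32 (limma adjusted p = 0.076), and its mutant values (96.5 to 110.0 RPKM) lay above its control values (71.5 to 90.9 RPKM). These genes were chosen for mention after their values were seen.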
